A study of Mus musculus with 24 samples.

Results

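The 10 genes described here encode the isoforms of myosin heavy chain and troponin by which skeletal muscle fibres are told apart. They were taken by their symbols, not by their values, from the 51138 genes counted in bone-forming constructs of mice: the fast myosins Myh4, Myh1 and Myh2, the slow myosin Myh7, the developmental myosins Myh3 and Myh8, the fast troponins Tnnt3 and Tnni2, and the slow troponins Tnnt1 and Tnni1. All 10 passed the minimum of 10 counts over all samples.

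The constructs were granules of biphasic calcium phosphate (BCP), a bone-substitute ceramic, placed in dorsal subcutaneous pockets of male and female Foxp3 DTR/eGFP mice aged 8 to 9 weeks, and collected at week 2. In these hosts the Foxp3 gene, which marks regulatory T cells (Treg), also drives a diphtheria toxin receptor and a green fluorescent protein, so that toxin can remove Treg. Every host carried this allele, the controls included. There were 6 groups of 4 constructs, each from a separate animal: ceramic alone (BCP), ceramic with bone marrow mesenchymal stem cells (BCP+MSC), with MSC primed by 10 nM resolvin E1 (BCP+MSC+RvE1), with MSC cocultured with Treg (BCP+MSC+Treg), and BCP+MSC in mice given diphtheria toxin at 50 µg/kg, without further treatment ((dep)BCP+MSC) or with local injections of 1 µM RvE1 ((dep)BCP+MSC+RvE1inj). RvE1 is a lipid mediator derived from an omega-3 fatty acid. The labels name no toxin-free group within the toxin arm, so the toxin and the arm cannot be told apart. Foxp3 itself was read at 0.629 to 1.19 CPM (counts scaled to the size of the library) in BCP+MSC. It was 0.378 to 1.69 CPM in (dep)BCP+MSC, on 17 to 83 counts, and 0.298 to 1.07 CPM in (dep)BCP+MSC+RvE1inj. These ranges overlapped, and so its RNA level in the construct did not separate the toxin-treated hosts. The paper reports Treg depletion by flow cytometry of lymph nodes and spleen, which were not read here.

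Muscle was not the intended tissue of these constructs. RNA came from the whole construct, in which fewer muscle fibres and less RNA per fibre cannot be told apart. Total counts ran from 8482701 to 144417743 per sample, and a gene at 0 counts was given an upper limit of 3 counts. That limit is 0.0208 CPM for the deepest library and 0.354 CPM for the shallowest, and it includes counting error alone. The 10 shared striated muscle genes (Acta1, Ckm, Ttn and others) summed to 204 to 18067 CPM, an 88.6-fold range, and replicate 2 of BCP+MSC was the lowest of the 24 samples. Xist, the RNA that coats the inactive X chromosome of females, stood above the summed Y-linked genes in 1 of 4 BCP, 3 of 4 BCP+MSC, 0 of 4 BCP+MSC+RvE1, 1 of 4 BCP+MSC+Treg, 2 of 4 (dep)BCP+MSC and 0 of 4 (dep)BCP+MSC+RvE1inj samples. The part of sex in the differences below was not tested except where a fit with this Xist split as a term is given.

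A sarcomere contracts when myosin heads on the thick filament pull on actin, and the troponin complex on the thin filament lets them do so when calcium binds. Each adult fibre is known mainly for 1 myosin: the slow, oxidative type I fibre for Myh7, and the fast IIa, IIx and IIb fibres, in order of rising speed and falling oxidative capacity, for Myh2, Myh1 and Myh4. Troponin T anchors the complex to tropomyosin and troponin I blocks contraction at rest, each with a fast and a slow skeletal gene. Myh3, the embryonic myosin, and Myh8, the perinatal one, are made in developing fibres and again for a time when fibres regenerate. Trunk muscles of mice, including the thin sheet under the skin of the back, are made largely of fast fibres.

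In GENCODE M13 on GRCm38, 5 of the 6 myosins lie in a row on the plus strand of chromosome 11: Myh3 (ENSMUSG00000020908.14, 67078300 to 67102291), Myh2 (ENSMUSG00000033196.17, 67171027 to 67197517), Myh1 (ENSMUSG00000056328.14, 67200052 to 67224575), Myh4 (ENSMUSG00000057003.12, 67238029 to 67260446) and Myh8 (ENSMUSG00000055775.16, 67277124 to 67308634). Myh7 (ENSMUSG00000053093.15) lies apart on the minus strand of chromosome 14, 54970688 to 54994634. On chromosome 7, Tnni2 (ENSMUSG00000031097.15, 142441808 to 142444410) and Tnnt3 (ENSMUSG00000061723.18, 142498836 to 142516009) are close neighbours, and Tnnt1 (ENSMUSG00000064179.13, 4504570 to 4516382) is at the other end. Tnni1 (ENSMUSG00000026418.16) is on chromosome 1, 135779434 to 135810989.

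The myosins are near copies, which bears on how their reads could be told apart. Over aligned coding sequence Myh4 was 90.1% identical to Myh1, 88.2% to Myh2, 87.9% to Myh8, 80.3% to Myh3 and 77.4% to Myh7, and the closest pair was Myh1 and Myh2 at 90.9%. Of all 50-base windows of coding sequence, 27.9% in Myh2, 27.2% in Myh1, 21.0% in Myh8 and 19.2% in Myh4 occurred unchanged in another of the 6 genes, against 3.79% in Myh3 and 0.226% in Myh7. At 100 bases the shares fell to 9.88% or less, and none remained in Myh3 or Myh7. Reads with several alignments were left out of the counts, so the fast and perinatal myosins could lose more reads than the slow and embryonic ones. Reads were also counted without regard to strand, and 13.3% of the exon bases of Myh7, 8.11% of those of Myh1 and 3.32% of those of Myh2 lie in an exon of a gene on the opposite strand, among them Mhrt for Myh7 and Myhas for Myh1. The other 7 genes had no such overlap. The 60-base stretch below is shown because it separates all 6 genes by at least 14 bases. It lies in an exon of the myosin tail in each gene, with capitals at bases that differ from Myh4: chr11:67254462-67254521 in exon 28 of Myh4, chr11:67217468-67217527 in exon 29 of Myh1 with 17 differing bases, chr11:67191352-67191411 in exon 29 of Myh2 with 17, chr14:54978638-54978697 on the minus strand in exon 30 of Myh7 with 14, chr11:67096013-67096072 in exon 29 of Myh3 with 21, and chr11:67299717-67299776 in exon 29 of Myh8 with 15.
Myh4: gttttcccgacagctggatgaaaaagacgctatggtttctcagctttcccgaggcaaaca
Myh1: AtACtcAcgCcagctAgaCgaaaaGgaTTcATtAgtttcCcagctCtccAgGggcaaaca
Myh2: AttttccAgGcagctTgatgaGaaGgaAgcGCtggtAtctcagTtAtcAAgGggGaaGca
Myh7: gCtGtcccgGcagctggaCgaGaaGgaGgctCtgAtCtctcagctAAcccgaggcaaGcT
Myh3: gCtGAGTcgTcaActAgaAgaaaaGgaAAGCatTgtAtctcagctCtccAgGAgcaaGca
Myh8: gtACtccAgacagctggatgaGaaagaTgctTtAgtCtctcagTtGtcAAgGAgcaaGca

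Upstream windows were read for 8 of the 10 genes from RefSeq on GRCm38.p6. The windows of Myh4 (chr11:67237562-67237811), Myh1 (chr11:67199852-67200051), Myh8 (chr11:67276874-67277123) and Myh3 (chr11:67078050-67078299), all on the plus strand and 250 bases long except for the 200 of Myh1, are shown because these genes make up the fast and the developmental pairs whose levels are compared below. Capitals mark a match to the consensus of MEF2, a muscle transcription factor, searched on both strands. The match stood once each in Myh4, Myh1 and Myh8 and in none of the windows of Myh2, Myh3, Myh7, Tnnt1 and Tnni1, and 2.92% of 32851 windows of 250 bases before gene starts held one. The E-box CANNTG, the motif of the MyoD family, was found 2 times in Myh4, once each in Myh3, Myh8 and Tnnt1, 1 and 2 times in the 2 windows of Myh7, 4 and 2 times in those of Tnni1, and not in Myh1 or Myh2. Of all windows 66.2% held it.
Myh4: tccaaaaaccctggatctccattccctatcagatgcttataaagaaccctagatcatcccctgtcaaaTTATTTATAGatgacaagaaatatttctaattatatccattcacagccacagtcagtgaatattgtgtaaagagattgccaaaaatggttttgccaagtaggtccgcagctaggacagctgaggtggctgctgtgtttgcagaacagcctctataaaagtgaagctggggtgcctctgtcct
Myh1: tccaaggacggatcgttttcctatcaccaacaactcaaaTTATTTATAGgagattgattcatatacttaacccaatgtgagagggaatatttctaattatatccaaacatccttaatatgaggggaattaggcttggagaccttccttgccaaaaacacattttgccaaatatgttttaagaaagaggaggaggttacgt
Myh8: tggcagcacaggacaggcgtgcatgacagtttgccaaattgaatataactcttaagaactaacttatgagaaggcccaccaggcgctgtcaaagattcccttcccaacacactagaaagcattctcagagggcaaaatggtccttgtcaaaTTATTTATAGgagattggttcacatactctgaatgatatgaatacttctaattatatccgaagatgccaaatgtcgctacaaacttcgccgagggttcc
Myh3: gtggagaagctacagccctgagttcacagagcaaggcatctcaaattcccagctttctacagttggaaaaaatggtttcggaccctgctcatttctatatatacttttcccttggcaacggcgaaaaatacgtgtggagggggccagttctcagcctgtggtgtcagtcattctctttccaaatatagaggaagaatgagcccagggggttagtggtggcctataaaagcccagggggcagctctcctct

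Fast isoforms made up nearly all of the muscle message in every group. Per kilobase of exon, the median over 24 samples was 583 CPM for Myh4, 57.7 for Myh1, 20.0 for Myh2 and 1.31 for Myh7. The fast troponins Tnnt3 and Tnni2 had medians of 2158 and 1153 CPM per kilobase, against 9.03 for Tnnt1 and 4.12 for Tnni1. The developmental myosins were lowest, with 0.444 for Myh3 and 0.309 for Myh8. The last value is lowered by the long annotated exons of Myh8, 11772 bases against a coding length of 5814.

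**Figure D1:**
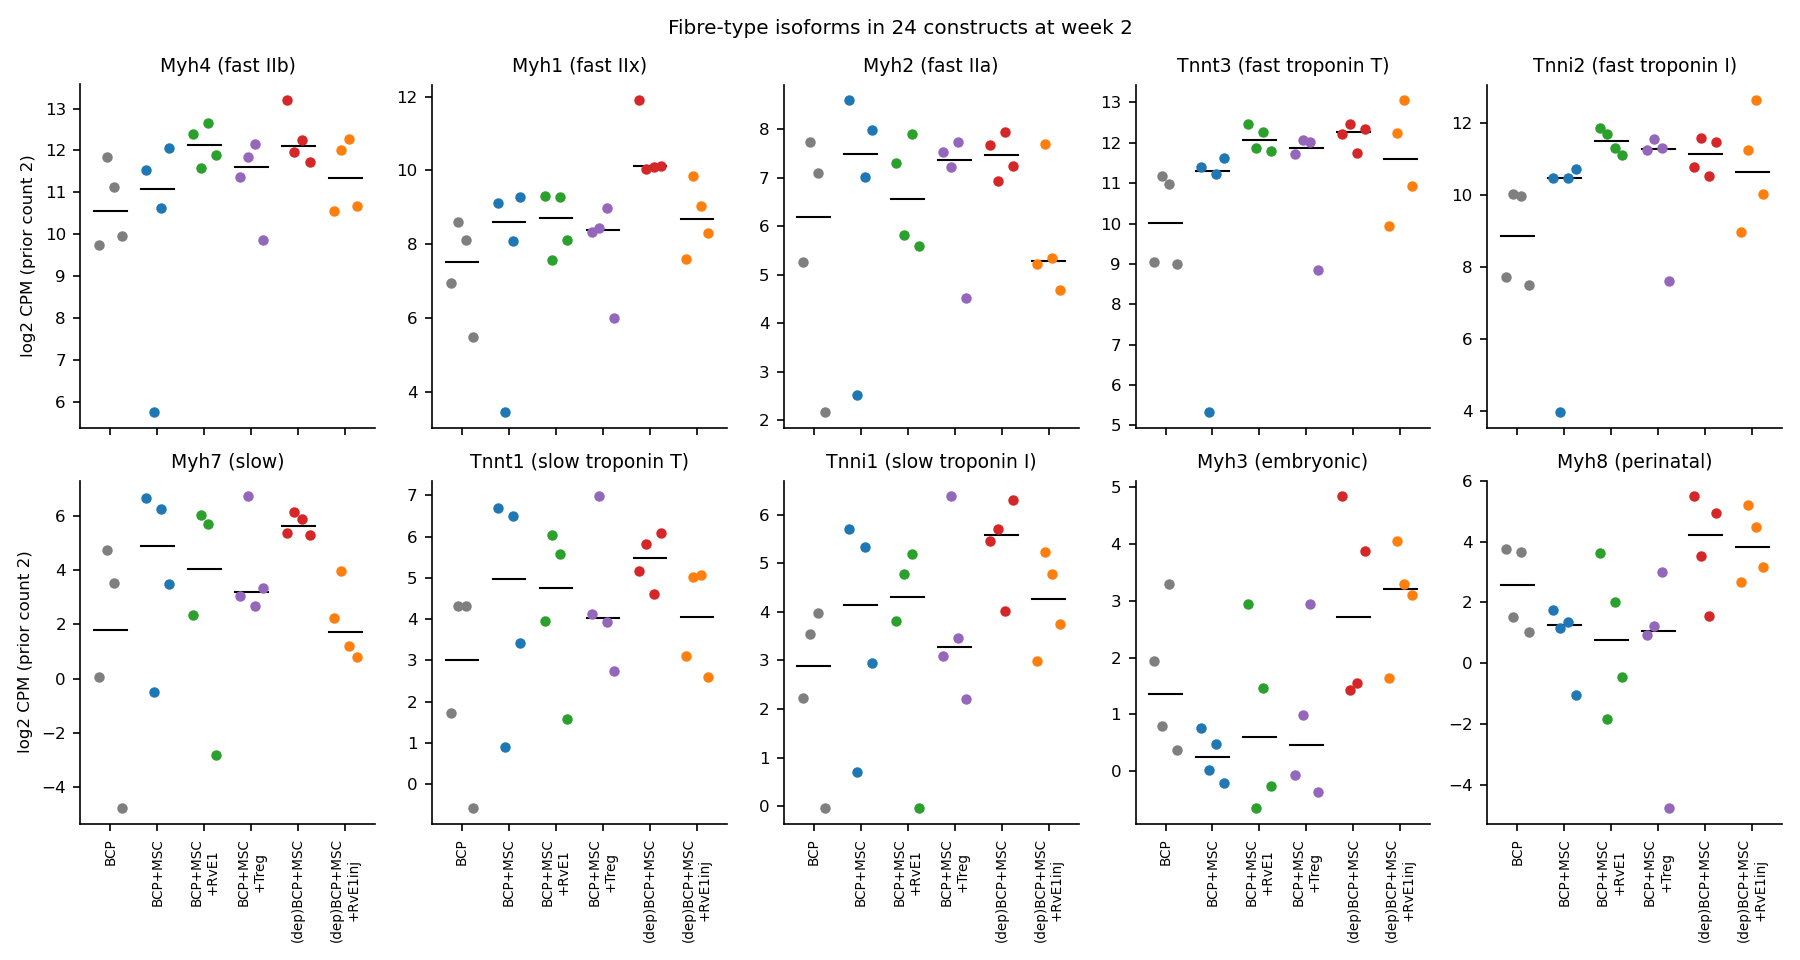
Level of each of the 10 genes on the log2 CPM scale (prior count 2) in the 24 constructs, in 6 groups of 4, with each point 1 construct and each line the group median. The fast genes fall far below their group in replicate 2 of BCP+MSC, where Myh4 is 54.1 CPM and Tnni2 15.5 CPM.

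Myh4, the myosin of IIb fibres, was the most abundant of the myosins in all 24 samples. In BCP the 4 replicates, in order, read 862, 3661, 2254 and 992 CPM, and those of BCP+MSC 2957, 54.1, 1573 and 4277 CPM. In BCP+MSC+RvE1 it was 5387, 3076, 6410 and 3774 CPM, and in BCP+MSC+Treg 2657, 3700, 4556 and 933 CPM. The toxin-treated (dep)BCP+MSC mice read 9423 and 3976 CPM for the first 2 replicates and 4877 and 3358 CPM for animals a and b, whose columns could not be tied to a replicate number, and in (dep)BCP+MSC+RvE1inj it was 1509, 4120, 4922 and 1644 CPM. Every group overlapped at least 1 other, and the spread within BCP+MSC, from 54.1 to 4277 CPM, was wider than any difference between group medians.

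Myh1, the IIx myosin, showed a different order of groups. Ceramic alone gave 124, 386, 277 and 45.1 CPM, and BCP+MSC gave 560, 10.9, 272 and 627 CPM. With primed cells it was 629, 190, 624 and 277 CPM, and with Treg 323, 347, 507 and 64.7 CPM. Toxin-treated mice without RvE1 gave 3838, 1046, 1103 and 1117 CPM, and with injected RvE1 194, 916, 523 and 319 CPM. All 4 samples of (dep)BCP+MSC were above all 20 others, whose highest value was the 916 CPM of replicate 2 of (dep)BCP+MSC+RvE1inj.

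Myh2, the IIa myosin, ran from 4.47 CPM in replicate 4 of BCP to 388 CPM in replicate 1 of BCP+MSC, with a median of 143 CPM. Its groups overlapped throughout on this scale. Tnnt3, the fast troponin T, was 526, 2305, 2019 and 515 CPM in BCP, against 2702, 40.2, 2391 and 3147 CPM with MSC. It was 5684, 3776, 4904 and 3546 CPM in BCP+MSC+RvE1, and 4729, 5705, 3439 and 5233 CPM in (dep)BCP+MSC, both above every BCP and BCP+MSC sample. In BCP+MSC+Treg it ran from 461 to 4265 CPM and in (dep)BCP+MSC+RvE1inj from 976 to 8529 CPM. Tnni2, the fast troponin I, was 212, 1034, 1010 and 181 CPM in BCP, 1422, 15.5, 1416 and 1680 CPM with MSC, and 3744, 3328, 2536 and 2226 CPM in BCP+MSC+RvE1. The last group was above all 8 samples of the former groups, while (dep)BCP+MSC, at 1490 to 3086 CPM, overlapped BCP+MSC.

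The slow genes were low and uneven. Myh7 was 0.991, 26.6, 11.4 and 0 CPM in BCP, where 0 counts allowed up to 0.213 CPM, 101, 0.672, 76.4 and 11.2 CPM in BCP+MSC, and 41.3, 70.7, 58.2 and 39.5 CPM in (dep)BCP+MSC. With injected RvE1 it was 4.63, 15.5, 2.24 and 1.72 CPM, below all 4 samples of (dep)BCP+MSC. In BCP+MSC+RvE1 it ran from 0.104 to 65.5 CPM and in BCP+MSC+Treg from 6.39 to 106 CPM, so both groups held samples with little slow myosin and samples with as much as the toxin-treated mice. Tnnt1, the slow troponin T, ranged from 0.629 to 127 CPM over all samples and Tnni1, the slow troponin I, from 0.938 to 83.2 CPM. The highest sample of both was replicate 2 of BCP+MSC+Treg, which was also the highest for Myh7.

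The developmental myosins were near the bottom of the scale. Myh3 was 3.79, 1.70, 9.73 and 1.26 CPM in BCP, and 1.66, 0.977, 1.36 and 0.832 CPM with MSC added. It was 28.6, 2.65, 2.89 and 14.7 CPM in (dep)BCP+MSC, all above the highest BCP+MSC sample, and 3.08, 16.6, 9.78 and 8.59 CPM in (dep)BCP+MSC+RvE1inj, which were above it too. With primed cells it was 0.602 to 7.66 CPM and with Treg 0.740 to 7.61 CPM. Myh8 was 3.33, 2.21, 2.52 and 0.446 CPM in BCP+MSC and 45.1, 11.3, 2.89 and 30.9 CPM in (dep)BCP+MSC, groups that overlapped through animal a. It was at 0 counts in replicate 4 of BCP+MSC+Treg, which allowed up to 0.284 CPM.

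Muscle content, read from the shared striated genes, differed widely between constructs. Each isoform was therefore also expressed as a share of its set within a sample, from counts per kilobase. Such shares do not depend on scaling between samples, and they are described without a test. Myh4 made up 71.1% to 95.5% of the 4 adult myosins, with a median of 85.3%. The group medians were 86.0% in BCP, 78.3% in BCP+MSC, 90.2% in BCP+MSC+RvE1, 87.4% in BCP+MSC+Treg, 75.6% in (dep)BCP+MSC and 85.4% in (dep)BCP+MSC+RvE1inj. Every BCP+MSC and every (dep)BCP+MSC sample was below every BCP and BCP+MSC+RvE1 sample in Myh4 share.

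**Figure D2:**
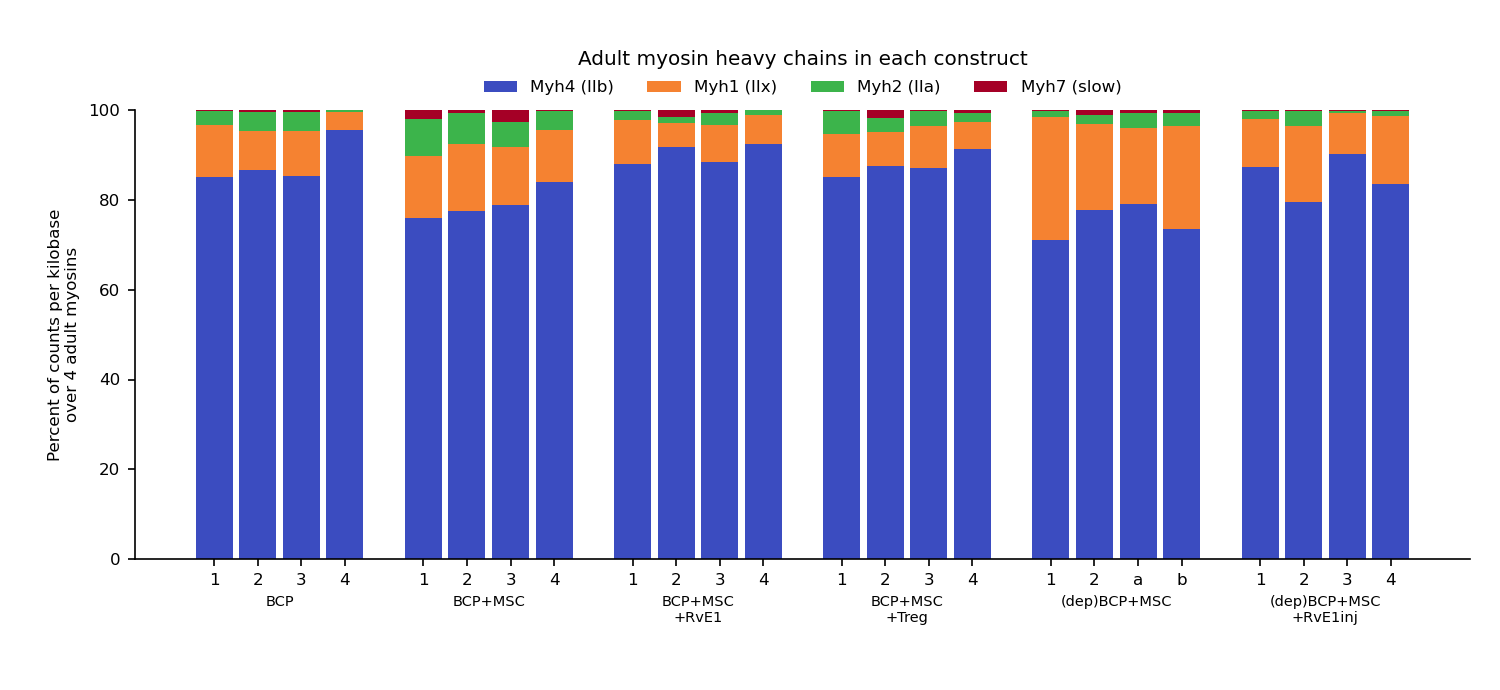
Stacked bars of Myh4, Myh1, Myh2 and Myh7 as percent of counts per kilobase over these 4 adult myosins, 1 bar for each of the 24 constructs, grouped as labelled, with a and b the 2 animals of (dep)BCP+MSC without a replicate number. Myh4 fills 71.1% to 95.5% of each bar, and the Myh1 portion is largest in (dep)BCP+MSC.

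The isoforms with a larger share where that of Myh4 was low differed between these groups. After toxin alone it was Myh1, with 27.4%, 19.3%, 16.9% and 23.1% of adult myosin. These were all above the 20 other samples, whose highest was 16.8% in (dep)BCP+MSC+RvE1inj. In CPM, Myh4 itself was not lower after toxin alone, at 3358 to 9423 CPM against 54.1 to 4277 CPM in BCP+MSC. In BCP+MSC both Myh1, at 11.7% to 14.8%, and Myh2, at 4.20% to 8.42%, were above all samples of BCP+MSC+RvE1, with 5.36% to 9.73% and 0.997% to 2.77%. The Myh2 share of BCP+MSC was also above those of (dep)BCP+MSC, 1.29% to 3.37%, and (dep)BCP+MSC+RvE1inj, 0.630% to 3.36%.

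The Xist split of the animals was uneven between the groups, so pooled shares mix the split with the group. Over the 7 samples with Xist above the Y-linked genes the Myh2 share had a median of 4.98%, and over the 17 others 2.77%. The 3 highest Myh2 shares, 8.42%, 6.92% and 5.45%, were the 3 BCP+MSC samples with Xist. The fourth BCP+MSC sample, at 4.20%, lay within the range of BCP, 0.363% to 4.40%. The Xist sample of BCP+MSC+Treg, at 4.98%, was the highest of its group, and that of BCP, at 3.19%, lay among the others. In (dep)BCP+MSC the order was reversed, with 1.29% and 2.00% in the samples with Xist and 3.37% and 2.81% in those without. The Myh1 share after toxin alone was 27.4% and 19.3% in the samples with Xist and 16.9% and 23.1% in those without, and the last 2 were still above all 15 other samples without Xist.

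**Figure D3:**
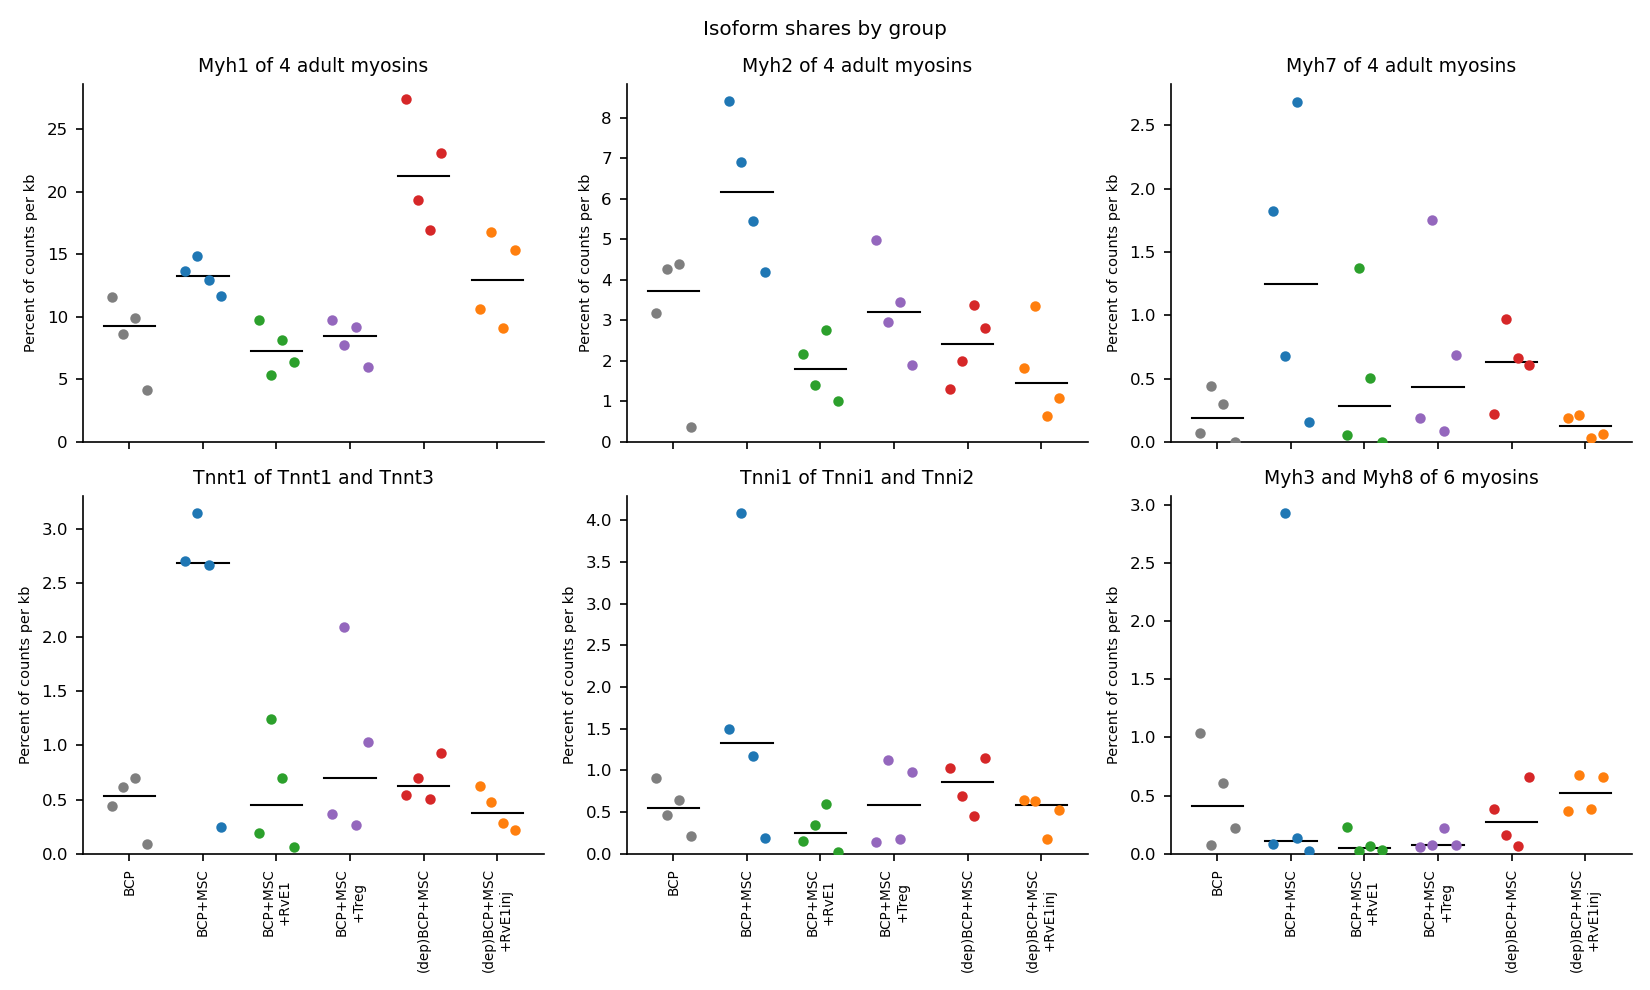
Share of each minor isoform in its set, in percent of counts per kilobase, for the 24 constructs in 6 groups, with each point 1 construct and each line the group median. The Myh1 share of (dep)BCP+MSC lies at 16.9% to 27.4%, above every other construct, and the slow shares stay below 5% throughout.

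The slow shares were small in every sample. Myh7 reached at most 2.69% of adult myosin, in replicate 3 of BCP+MSC, and Tnnt1 at most 3.14% of Tnnt1 and Tnnt3 and Tnni1 at most 4.08% of Tnni1 and Tnni2. Group medians of the Tnnt1 share were 2.68% in BCP+MSC and 0.379% to 0.697% in the 5 others, but BCP+MSC itself ran from 0.243% to 3.14%. The Myh7 share was above every (dep)BCP+MSC+RvE1inj sample in all 4 (dep)BCP+MSC samples, by a narrow margin, since their lowest was 0.218% and the highest with RvE1 0.210%. Myh3 and Myh8 together made up 0.0207% to 2.92% of the 6 myosins. The highest value was replicate 2 of BCP+MSC, where Myh4, Myh1, Tnnt3 and Tnni2 were lowest. In (dep)BCP+MSC+RvE1inj the share, at 0.364% to 0.676%, lay above all samples of BCP+MSC+RvE1 and BCP+MSC+Treg. Its range overlapped those of (dep)BCP+MSC, 0.0705% to 0.660%, of BCP, 0.0741% to 1.04%, and of BCP+MSC, 0.0207% to 2.92%.

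Several genes of 1 class followed each other closely across samples. On log2 CPM over 24 samples, Pearson's r was 0.99 for Tnnt3 with Tnni2 (Spearman's rho 0.93), 0.95 for Myh4 with Tnnt3 (0.84), 0.92 for Myh7 with Tnnt1 (0.91), 0.94 for Tnnt1 with Tnni1 (0.94) and 0.87 for Myh3 with Myh8 (0.96). Between classes it was 0.46 for Myh4 with Myh7 (0.31), 0.38 for Myh4 with Myh3 (0.39) and 0.12 for Myh7 with Myh3 (-0.00). Other pairs between classes were closer, among them Myh1 with Tnni1 at 0.70 (0.64), Tnnt1 with Tnni2 at 0.70 (0.58), Tnnt1 with Tnnt3 at 0.68 (0.60) and Myh1 with Myh3 at 0.58 (0.55). Myh2 was closest to Myh1, with r 0.82 (0.73). It had r 0.76 with Myh7 (0.57), 0.75 with Tnnt1 (0.50), 0.75 with Myh4 (0.66) and 0.74 with Tnnt3 (0.45). Without the 2 samples farthest from the median of the first gene, the values were 0.863 for Myh4 with Tnnt3, 0.879 for Myh7 with Tnnt1, 0.844 for Myh3 with Myh8 and 0.368 for Myh4 with Myh7. For Myh1 with Myh2 it was 0.793, and for Myh2 with Myh4, Myh7 and Tnnt1 it was 0.635, 0.593 and 0.549. All points share library, depth and muscle content, and the values are a description without a test.

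**Figure D4:**
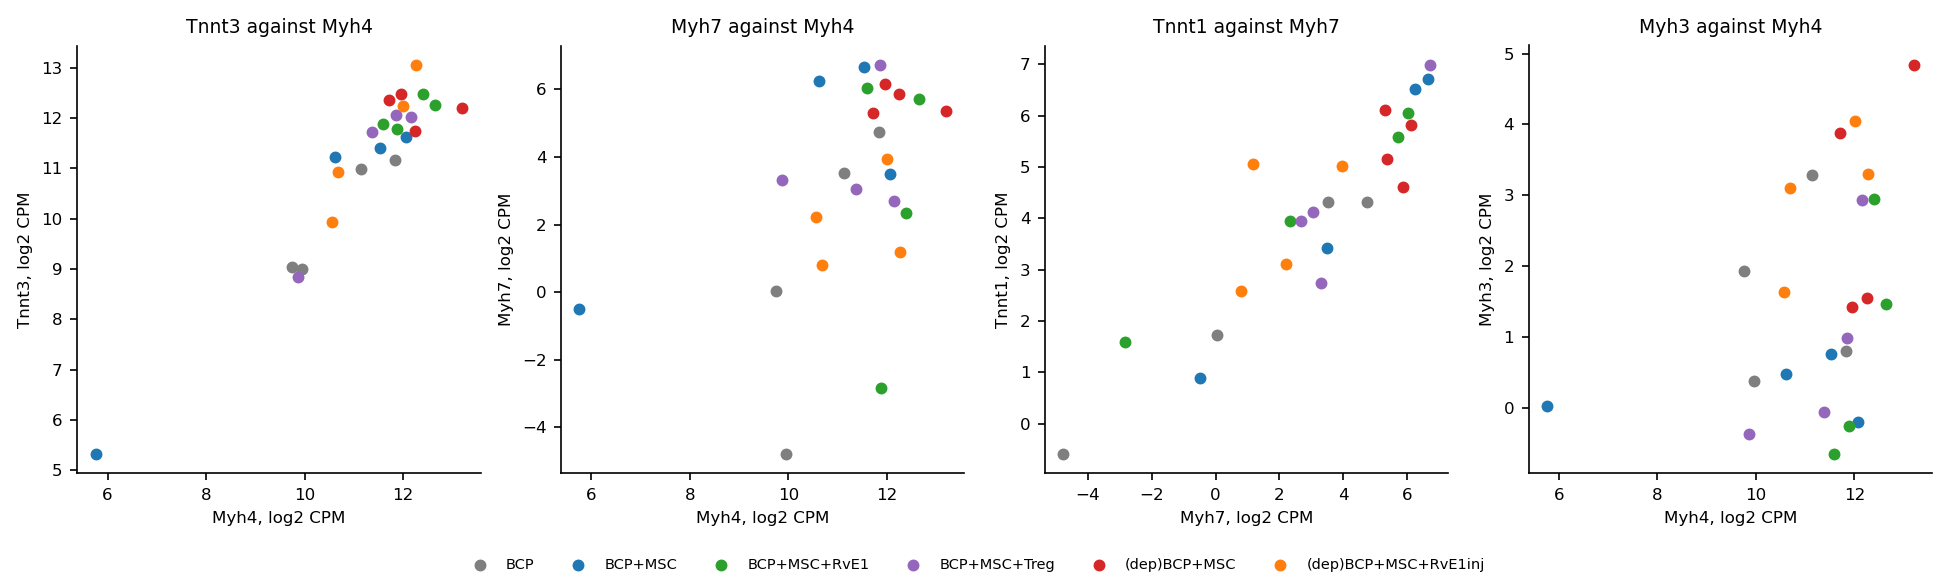
Log2 CPM of 4 pairs of isoforms, with each point 1 of the 24 constructs coloured by group. Myh4 with Tnnt3 and Myh7 with Tnnt1 lie close to a line (Pearson's r 0.95 and 0.92), while Myh7 and Myh3 scatter against Myh4 (r 0.46 and 0.38).

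The genes most like each class leader were also muscle genes. Those closest to Myh4 were Pygm, the glycogen phosphorylase of muscle, with r 0.982, Actn3, the alpha-actinin of fast fibres, with 0.979, and Ttn, the giant sarcomere spring titin, with 0.976. Those closest to Myh7 were Myl2 and Myl3, the light chains of slow and heart myosin, with r 0.979 and 0.922, and Tnnc1, slow troponin C, with 0.871. Those closest to Myh3 were Tnnt2, the troponin T of heart and embryonic muscle, with r 0.930, Mymk, the fusion factor myomaker, with 0.905, and Chrng, the fetal subunit of the acetylcholine receptor, with 0.903. Without the 2 samples farthest from the median, these 9 values of r were 0.857 to 0.956.

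Slow and developmental genes are also used by the heart, and its 7 marker genes were low but not all near 0. Myl7, the atrial light chain, was at 0 counts in 9 samples and at most 0.194 CPM, and Nppa, the atrial peptide, was at 0 counts in 11 and at most 0.176 CPM. Myh6 reached 1.89 CPM, Nppb 0.970 CPM and Ryr2 0.698 CPM. Tnni3, cardiac troponin I, was counted in every sample, at 1.63 to 7.55 CPM, and Tnnt2 ran from 0.247 to 37.7 CPM. The 7 heart genes summed to 3.70 to 43.1 CPM.

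The comparisons between groups were made in a single edgeR quasi-likelihood fit across 30564 genes, with Benjamini-Hochberg adjustment over all of them. The study's methods name an adjusted p under 0.05 with a log2 fold change over 1 and its results an unadjusted p, so both were applied, and called means an unadjusted p under 0.05 with a change above 1 or below -1 on the log2 scale. BCP served 3 comparisons, BCP+MSC 4 and (dep)BCP+MSC 2, so these are not independent of each other. No member had an adjusted p under 0.05 in any comparison by edgeR. DESeq2 on the same counts gave 3 such members in toxin-treated against untreated BCP+MSC, Myh1, Myh3 and Myh8, and 0 in every other comparison. Its unadjusted calls were 2 in BCP+MSC against BCP, 2 in BCP+MSC+RvE1 against BCP, 1 in BCP+MSC+Treg against BCP, and 0 against BCP+MSC for both primed cells and Treg.

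MSC on the ceramic gave no call among the members by edgeR and 2 by DESeq2. In the edgeR fit 0 of the 10 genes were called in BCP+MSC against BCP, where 4.32% of all genes were, and 8 estimates were positive with a median log2 fold change of 0.86, against 0.06 over all genes. By the rule of smallest p, Myh3 was at -1.79 ± 0.93 (SE, adjusted p = 0.888, edgeR quasi-likelihood with Benjamini-Hochberg), Tnnt1 at 2.23 ± 1.22 and Myh8 at -1.87 ± 1.14. The 9 fast partners had a median of 0.44 with 0 called, among them Atp2a1, the fast calcium pump, at 0.06 and Pvalb, the fast calcium buffer parvalbumin, at 0.57. Of 8 slow partners 1 was called, Tnnc1 at 2.71, and the median was 1.44. The 8 developing-muscle genes measured had a median of -0.84 with 0 called, with Actc1, cardiac actin of developing fibres, at -1.84 and Myl4, the embryonic light chain, at -0.70. Tpm3, listed as slow tropomyosin, was at 0.24, Mybpc1, the myosin-binding protein C of slow fibres, at 0.79, Acta1, skeletal actin, at 0.45 and Ckm, muscle creatine kinase, at 0.30. Over all samples Tpm3 ran only from 230 to 676 CPM, against the 88.6-fold range of the summed shared striated genes. It therefore did not vary with muscle content as those genes did, and it is given only as an abundant gene of its list.

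With RvE1-primed MSC, Tnni2 was the member called higher than on ceramic alone. It was higher by 2.28 ± 0.99 on the log2 scale (edgeR quasi-likelihood, Benjamini-Hochberg adjusted p = 0.303), with means of 2959 ± 700 CPM (SD, n = 4) against 609 ± 477 CPM. Tnnt3 was at 1.74 ± 0.86 and Myh4 at 1.26 ± 0.76, neither called. Thus 1 of 10 members was called where 8.54% of all genes were, a share near the background, and 8 of the 10 estimates were positive with a median of 1.25, against 0.03 over all genes. Tnnt3 and Tnni2 did not overlap between the groups, all 4 samples being higher with primed cells, as were 4.79% of all genes, and each gave an exact two-sided permutation p of 0.0286, the smallest that 4 against 4 allows. The Tnni2 call was lost without replicate 1 of BCP (estimate 2.01), replicate 4 of BCP (1.98) or replicates 1 or 2 of BCP+MSC+RvE1 in the edgeR fit, and was kept, at 2.24, with the Xist split as a term.

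In the same comparison, of the 9 fast partners 2 were called higher, Mylpf, the fast regulatory light chain, at 1.82 and Pvalb at 2.31, and the median was 1.62. Of the 10 shared striated genes 2 were called higher, the intermediate filament gene Des at 1.87 and the titin cap Tcap at 2.35, with Acta1 at 1.18 and Ckm at 1.37. Slow partners had a median of 1.39 and developing genes of 0.11, with 0 called in each list, and Atp2a1 was at 0.83, Mybpc1 at 1.05, Tpm3 at 0.23, Actc1 at 0.49 and Myl4 at 0.13. Adipocyte genes moved alongside: 5 of 5 estimates were positive with a median of 1.25, Fabp4, the fatty acid carrier of fat cells, was called higher at 2.05, and the 5 summed to 1487 to 5688 CPM with primed cells against 104 to 1442 CPM in BCP. Their part in the muscle differences was not tested. Muscle content was also added as a term, taken as the mean log2 CPM of the 10 shared striated genes. The estimates were then 0.93 for Tnni2 and -0.02 for Myh4, and 0 members were called.

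Treg coculture gave no call among the members by edgeR, and 1 against BCP by DESeq2. In BCP+MSC+Treg against BCP 0 of 10 were called, against 5.85% of all genes, with 8 positive and a median of 0.90. Tnni2 had the smallest p at 1.75 ± 0.97, followed by Tnnt1 at 1.91 ± 1.21 and Tnni1 at 1.69 ± 1.12 (adjusted p 0.614 to 0.636, edgeR with Benjamini-Hochberg). The Tnni1 estimate rested on replicate 2 of the Treg group and was -0.04 without it. Against BCP+MSC, 0 of 10 were called with Treg, where 2.56% of all genes were, and Myh3 was at 1.24 ± 0.91, Tnni2 at 0.86 ± 0.95 and Tnnt3 at 0.57 ± 0.84. In both Treg comparisons the fast, slow, shared and developing lists had 0 genes called, with medians of 1.10, 1.46, 0.77 and -0.21 against BCP and 0.66, -0.09, 0.34 and 0.95 against BCP+MSC. Against BCP, Atp2a1 was at 0.37, Pvalb at 1.65, Tpm3 at 0.14, Mybpc1 at 0.77, Acta1 at 0.74, Ckm at 0.80, Actc1 at -0.49 and Myl4 at -0.30. Against BCP+MSC the same genes, in that order, were at 0.31, 1.07, -0.10, -0.02, 0.29, 0.50, 1.35 and 0.40. The 3 brown fat genes Ucp1, Cidea and Elovl3 were called higher in both Treg comparisons and summed to 567 CPM in replicate 1 of the Treg group and to 0.329 to 1.63 CPM in its 3 others, and their part was not tested.

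In BCP+MSC+RvE1 against BCP+MSC 0 of 10 were called by edgeR, and by DESeq2, where 2.50% of all genes were. Tnni2 was at 1.38 ± 0.96, Myh3 at 1.31 ± 0.91 and Myh4 at 1.07 ± 0.76, each with an adjusted p of 0.924 (edgeR, Benjamini-Hochberg). Tnnt3 and Tnni2 were nevertheless higher in all 4 primed samples than in all 4 unprimed ones, as 0.867% of all genes were, with an exact permutation p of 0.0286 each. Replicate 2 of BCP+MSC, which held little muscle, did not make this order, since the highest unprimed samples, 3147 CPM for Tnnt3 and 1680 CPM for Tnni2, came from replicate 4, and they lay below the lowest primed ones, 3546 and 2226 CPM. Replicate 4 was the only unprimed sample with Xist below the Y-linked genes, as it was in all 4 primed samples. The fast partners had a median of 1.18 and the slow ones of -0.12, both with 0 called, and Actc1 was the single call of the developing genes at 2.33. Atp2a1 was at 0.77, Pvalb at 1.74, Tpm3 at -0.01, Mybpc1 at 0.25, Acta1 at 0.73, Ckm at 1.07 and Myl4 at 0.83.

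In toxin-treated hosts of BCP+MSC, Myh3, Myh8 and Myh1 were called higher than in untreated ones, by the unadjusted threshold of the edgeR fit. Myh3 was higher by 3.33 ± 0.98 on the log2 scale (edgeR quasi-likelihood, Benjamini-Hochberg adjusted p = 0.0603), Myh8 by 3.41 ± 1.21 (adjusted p = 0.120) and Myh1 by 2.27 ± 0.90 (adjusted p = 0.159). The mean of Myh1 was 1776 ± 1375 CPM (SD, n = 4) in (dep)BCP+MSC against 367 ± 283 CPM, and that of Myh3 12.2 ± 12.3 against 1.21 ± 0.377 CPM. These 3 of 10 members were called, all higher, in a comparison where 13.2% of all genes were called and 6.65% were called higher. No member was among the 3.14% of genes that passed with an adjusted p. The other 7 members were not called, 8 of 10 estimates were positive, and the median was 1.11 against -0.04 over all genes. Myh1, Myh3 and Tnnt3 did not overlap between the groups, all 4 toxin samples being higher, as were 4.22% of all genes, with an exact permutation p of 0.0286 each. The lower Myh3 values of (dep)BCP+MSC, 2.65 and 2.89 CPM, lay within the 1.26 to 9.73 CPM of BCP. As a share of the 6 myosins, Myh3 and Myh8 together were 0.0705% to 0.660% in (dep)BCP+MSC. This overlapped BCP+MSC, at 0.0207% to 2.92%, and BCP, at 0.0741% to 1.04%.

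Replicate 1 of (dep)BCP+MSC was the shallowest library and the highest for Myh1, Myh3, Myh4 and Myh8. Without it, Myh3, at 2.48, and Myh8, at 2.82, kept their calls in the edgeR fit and Myh1, at 1.55, lost its call. With the Xist split as a term all 3 remained called, at 3.34, 3.74 and 2.29. With muscle content as a term Myh1 stayed called at 1.03, and Myh3 and Myh8, at 2.41 and 2.62, did not. Keratinocyte genes rose in the same comparison: 4 of 7, Krt1, Krt10, Lor and Dsg1a, were called higher, and the 7 summed to 12.0 to 399 CPM in (dep)BCP+MSC, with the highest in replicate 1, against 1.93 to 38.4 CPM in BCP+MSC. Their part in the myosin differences was not tested.

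Some other genes of developing muscle were called higher in toxin-treated hosts as well. Of 8 measured, 4 were called higher and 0 lower, where 6.65% of all genes were called higher. None had an adjusted p under 0.05 (lowest 0.0603, edgeR with Benjamini-Hochberg). The 4 called were Mymk, which fuses muscle precursors, at 3.63, Myog, the regulator of their differentiation, at 3.08, Chrng at 2.76 and Myl4 at 2.14, with a list median of 1.75. Myf5 at 1.36, Actc1 at 0.80, Myod1 at 0.18 and Pax7 at -0.08 were not called. The 8 genes summed to 9.87 to 84.4 CPM in (dep)BCP+MSC, which overlapped the 3.94 to 21.9 CPM of BCP+MSC. The fast partners split, with Atp2a1 called higher at 2.04 and Casq1, the calcium store of fast fibres, called lower at -1.67, a median of 0.71, and Pvalb at -1.54 and not called. Of the slow partners Actn2 and Mybpc1 were called higher, at 2.15 and 1.77, with Tpm3 at -0.55, and of the shared genes Des, Myot, Neb and Ryr1, at 1.72 to 2.25, with Acta1 at -0.06 and Ckm at 0.54. Tnnt2 and Myh6 were called among the 7 heart genes, at 3.59 and 2.14.

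With RvE1 injected into toxin-treated hosts, Myh1 was the single member called, and it was lower. Its change was -1.86 ± 0.88 on the log2 scale (edgeR quasi-likelihood, Benjamini-Hochberg adjusted p = 0.668), with means of 488 ± 316 CPM (SD, n = 4) against 1776 ± 1375 CPM. Myh7 was at -3.09 ± 1.62 and Myh2 at -1.22 ± 1.04 in the same edgeR fit, neither called. Thus 1 of 10 members was called where 5.13% of all genes were, a single call not far from the background. Of the estimates 1 was positive, and the median was -0.99, against 0.00 over all genes. Myh1 and Myh7 were lower in all 4 injected samples than in all 4 others, as 1.30% of all genes were, each with an exact permutation p of 0.0286. The Myh1 call was lost without replicate 1 of (dep)BCP+MSC (-1.16), without replicates 1, 3 or 4 of the injected group, and with the Xist split as a term (-1.97). The 4 keratinocyte genes named above were called lower here. Brown fat genes were called higher, Cidea at 4.88 and Ucp1 at 6.69, and the 3 summed to 263 CPM and 235 CPM in replicates 1 and 3 of the injected group, whose Myh1 shares were 10.6% and 9.08%. In replicates 2 and 4 they summed to 1.62 CPM and 1.30 CPM, with Myh1 shares of 16.8% and 15.4%. The part of either set of genes was not tested.

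The developmental myosins were not called in the injected mice, with Myh3 at -0.35 ± 0.89 and Myh8 at -0.28 ± 1.10, and their change was not tested against that of Myh1. Myh3 had a mean of 9.51 ± 5.55 CPM (SD, n = 4) with RvE1 and 12.2 ± 12.3 CPM without, with an exact permutation p of 0.857. The muscle lists had 0 calls in this comparison, with medians of -0.37 for the fast partners, -1.29 for the slow ones, -0.66 for the shared genes and -0.10 for the developing ones. Atp2a1 was at -1.09, Pvalb at 0.76, Tpm3 at 0.17, Mybpc1 at -1.33, Acta1 at -0.57, Ckm at -0.31, Actc1 at 0.15 and Myl4 at -0.06.

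**Figure D5:**
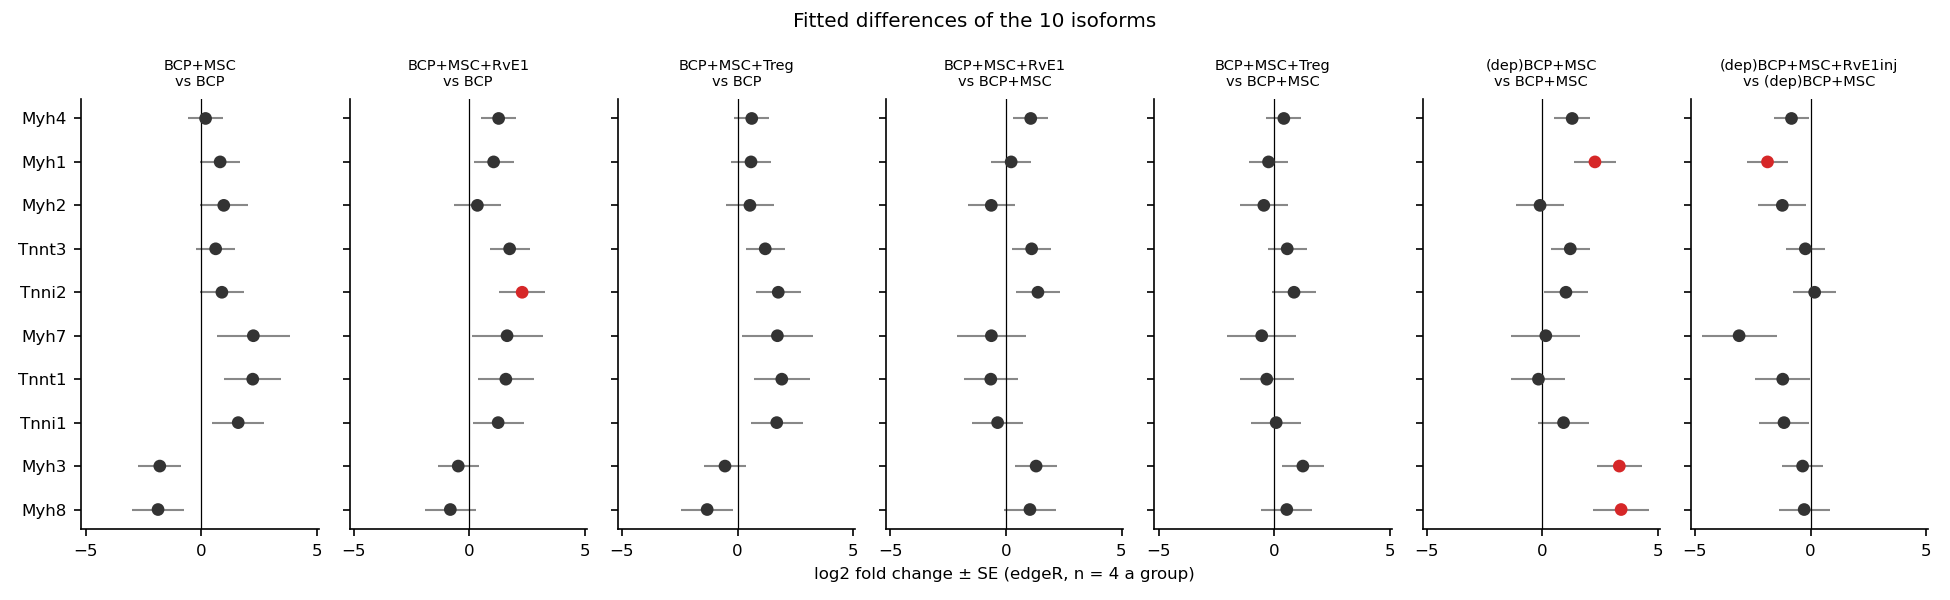
Log2 fold change with its standard error for the 10 genes in 7 comparisons of the edgeR fit, with the genes called at an unadjusted p under 0.05 and a change beyond 1 in red. Tnni2 is called with primed cells against BCP, Myh1, Myh3 and Myh8 in toxin-treated against untreated BCP+MSC, and Myh1, lower, with injected RvE1.

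The effects of RvE1 in the 2 settings were compared directly, injection in toxin-treated hosts against priming of cells in untreated ones. All 10 estimates were negative with a median of -1.33, against 0.06 over all genes, and 0 were called, where 4.00% of all genes were. Myh4 had the smallest p at -1.90 ± 1.07 (edgeR), followed by Myh1 at -2.09 ± 1.22 and Myh3 at -1.65 ± 1.27. DESeq2 called 2 members in this comparison, Myh4 at -1.96 and Myh1 at -2.17, with no adjusted p under 0.05.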

How the data were processed

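RNA from 24 whole constructs at week 2 was made into stranded mRNA libraries and sequenced by the authors. Per the labels and the submitters' processing notes, reads were aligned with HISAT2 2.0.5 and counted per gene with featureCounts 1.5.2 on GENCODE M13. The deposited values are raw counts for 51138 genes, without normalization. The recorded counting command sets no option for strand or multiple alignments, so reads were assigned without strand and those with several alignments were left out. All 24 columns were used. The (dep)BCP+MSC columns carry the numbers 1, 2, 4 and 5, but its samples 1 to 4. Columns 4 and 5 were kept in the group as animals a and b, with no number.

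Genes reaching 10 counts in total were tested with edgeR 4.0.16 (limma 3.58.1, R 4.3.3), in a quasi-likelihood fit with TMM normalization, robust dispersions and all 6 groups, and Benjamini-Hochberg adjustment over all genes tested. The tests were tested on simulated data. CPM values are scaled by TMM and log2 CPM has a prior count of 2. Single members were compared by exact two-sided permutation over 70 arrangements. Total counts of 8482701 to 144417743 set the precision. The text gives, for each comparison between groups, the members with an adjusted p under 0.05 or, where there are fewer than 3, the 3 with the smallest p, and the 2 most abundant genes of each list. Genes most like a member have the highest Pearson's r over the 24 samples.

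The alternatives were RLE normalization, other filters, a replicate block, muscle content as a term, fits of only the groups compared, DESeq2 1.42.0 and leaving out each sample. A term for the Xist split and a fit on the samples of the block were added after seeing the data. Coding sequences of GENCODE M21 were aligned with mafft, and upstream windows came from RefSeq, both on GRCm38. The members and the gene lists were chosen with earlier results of these data known.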

Additional observations from a re-analysis of the deposited data

Results flagged for a closer look

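In 13 of 108 groups of 4 samples, 1 sample stood apart from the others by Dixon's test at the 95% level, in 7 of 60 groups of log2 CPM and 6 of 48 groups of shares. Chance alone gives about 1 in 20 for a single test. The groups tested share samples, and several of the genes follow each other closely, so these counts cannot be set against that rate.

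Among the levels, Myh1 in replicate 1 of (dep)BCP+MSC, at 3838 CPM, stood above its group. Replicate 2 of BCP+MSC stood below its group for Tnnt3, at 40.2 CPM, and Tnni2, at 15.5 CPM. Replicate 4 of BCP+MSC+Treg stood below its group for Myh2, at 22.9 CPM, Tnnt3, at 461 CPM, and Tnni2, at 194 CPM. Replicate 2 of that group stood above it for Myh7, at 106 CPM.

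Among the shares, Myh4 in replicate 4 of BCP was 95.5% of adult myosin, above its group. Myh3 and Myh8 together were 2.92% of the 6 myosins in replicate 2 of BCP+MSC and 0.222% in replicate 3 of BCP+MSC+Treg, both above their groups. Tnnt1 was 0.243% of Tnnt1 and Tnnt3 in replicate 4 of BCP+MSC, below its group. Myh3 was 78.4% of Myh3 and Myh8 in replicate 4 of BCP+MSC and 65.1% in replicate 4 of (dep)BCP+MSC+RvE1inj, both above their groups. In the direct comparison of the RvE1 effects between toxin-treated and untreated hosts, 0 members had an unadjusted p under 0.05 by the edgeR fit.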

How the results depend on the processing

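The number of members called moved with some settings. In BCP+MSC against BCP it was 1 with muscle content as a term and 2 with only the groups compared or with DESeq2. In BCP+MSC+RvE1 against BCP it was 2 with edgeR's expression filter or DESeq2, 3 with only the groups compared and 0 with muscle content as a term, where Myh4 turned to -0.0191. In BCP+MSC+Treg against BCP it was 1 with DESeq2, and Tnni1 ran from -0.0429, without replicate 2 of the Treg group, to 2.21, without replicate 3 of BCP, over the samples left out. In BCP+MSC+RvE1 against BCP+MSC it was 1 with muscle content as a term. In the injected against the uninjected toxin-treated mice it was 0 without a filter or with the Xist split as a term, and 2 with only the groups compared or with DESeq2. In the direct comparison of the RvE1 effects it was 2 with DESeq2. The cause was not tested. In (dep)BCP+MSC against BCP+MSC the count stayed between 2 and 4 under every setting run, but the members called changed. Myh3 and Myh8 were not called with muscle content as a term, and Myh1 was not called without replicate 1 of (dep)BCP+MSC.

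Leaving out 1 sample at a time gave 0 to 1 calls in BCP+MSC and in BCP+MSC+Treg against BCP, 0 to 3 in BCP+MSC+RvE1 against BCP, 0 to 0 against BCP+MSC for primed cells and for Treg, 2 to 4 in (dep)BCP+MSC against BCP+MSC, 0 to 3 with injected RvE1 and 0 to 1 between the RvE1 effects. The median Myh4 share was 84.1% without division by exon length and 85.2% to 85.4% with 1 sample left out. Of the settings of single named members, 387 kept direction and side of the threshold, 24 gained a call, 16 lost it and 2 reversed.

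Samples with the same replicate number differed little from others by the median. The median correlation of deviations from group means was 0.0108 over 50 same-numbered pairs and -0.0341 over 150 others. Single pairs ran from -0.644 to 0.584 and from -0.656 to 0.743, and a median cannot tell whether some samples were paired. With the number as a block, on the 22 numbered samples, 2 members were called in BCP+MSC against BCP, 2 in (dep)BCP+MSC against BCP+MSC and 0 with injected RvE1, against 3 in (dep)BCP+MSC on the same samples without the block, a fit chosen after seeing the data. Depth limits the low genes most: Myh3 had 9 to 1233 counts, and Myh7 and Myh8 were at 0 in 1 sample each.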

Other observations

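Tnnc2, the fast troponin C, was read at 0.0153 to 9.15 CPM, while its partner in the same complex, Tnni2, was read at 15.5 to 6383 CPM. In GENCODE M21, 592 of the 800 exon bases of Tnnc2, 74%, lie in an exon of Ube2c on the opposite strand. The counts were made without strand and without reads in overlapping genes.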
